A study of Mus musculus with 2 samples.

Results

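Regions between genes with signal in both replicates were examined in CUT&Tag of ISL1 from wild-type mouse retina at E13.5. The members, chosen by their signal and their place, are 462 of the 1078 regions that had uneven coverage in both peak lists on chromosomes 1 to 19 and X. An interval was uneven when its total signal was under 95% of its width times its maximum signal, which needs more than a single stretch of equal coverage. A member is the union of uneven intervals of replicate 1 and replicate 2 that overlap by at least 1 bp, has a maximum signal of 100 or less in both lists, has its midpoint outside every protein-coding gene span and does not touch the window of 1 kb to either side of a gene end. Gene ends were read as those of protein-coding genes, and with genes of all annotated kinds there would be 333 members. The other uneven regions with maxima of 100 or less lay at gene ends (265) or inside gene bodies (290).

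The only group was wild-type retina, with 2 replicates and no dose, treatment or mutant. Whether separate animals or litters gave these replicates is not stated in the labels, which list a pair of rabbit antibodies against ISL1 but do not tie either antibody to a replicate. No control antibody was analysed here, so signal that does not come from ISL1 was not tested. The replicate 1 list held 120303 intervals on these chromosomes, of which 7338 (6.10%) were uneven, and the replicate 2 list held 152161, of which 8886 (5.84%) were uneven. The sequencing depth is unknown, so signal ranks intervals within a list, and values of the lists are set side by side without a test of their size. All coordinates are 1-based in mm10.

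ISL1 is a LIM-homeodomain transcription factor that recognises short AT-rich sites and acts with LIM-domain partners. In the retina it is switched on in newborn ganglion cells, and ganglion cell differentiation fails without it. Genes of eye development such as Pax6, Sox2 and Six3 are known to be controlled in part by enhancers that lie far from their promoters, in the sequence between genes. In CUT&Tag an antibody directs the Tn5 transposase to its target in nuclei, and Tn5 can also tag open chromatin and abundant repeated DNA.

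Genome sequence was not used here, so the members themselves cannot be shown as bases. Promoter sequences from RefSeq (GRCm38.p6, the assembly of mm10) were given for 250 bases before to 50 bases after a start site, and 7 such promoters, all of genes that do not code for protein, were overlapped by 6 members. They are shown because no other stretch of member DNA was available as letters. The member at chr3:19953183-19954108 covered 68.0% of the Gm42190 promoter (chr3:19953905-19954204, minus strand), leaving out its 5′ part, and its signal peaked at 35 in replicate 1 and at 9 in replicate 2. The member at chr3:95985152-95985708 held the whole Gm9054 promoter (chr3:95985260-95985559, plus strand), with 44 and 15. The member at chr11:95858395-95859514 held the whole of 2 divergent, overlapping promoters, those of Gm38959 (chr11:95858402-95858701, minus strand) and 4833417C18Rik (chr11:95858567-95858866, plus strand), with 48 and 35. The promoters of Gm32123 (chr14:25109011-25109310, plus strand, maxima 54 and 15) and Gm3728 (chr19:20010095-20010394, minus strand, maxima 45 and 29) were likewise held whole, and the latter member lies in the gap between Rorb and Anxa1. In all but the seventh promoter the maximum was thus higher in replicate 1. Each sequence runs 5′ to 3′ on the gene's strand, and capitals mark TAATG or TAATTA, the ISL1-type and palindromic homeodomain letters, on either strand.
Gm42190: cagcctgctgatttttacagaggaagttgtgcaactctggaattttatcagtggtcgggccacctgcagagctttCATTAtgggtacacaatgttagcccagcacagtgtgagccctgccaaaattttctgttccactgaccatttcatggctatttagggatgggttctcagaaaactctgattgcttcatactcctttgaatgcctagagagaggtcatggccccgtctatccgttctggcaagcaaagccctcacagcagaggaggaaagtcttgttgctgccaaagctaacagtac 
Gm9054: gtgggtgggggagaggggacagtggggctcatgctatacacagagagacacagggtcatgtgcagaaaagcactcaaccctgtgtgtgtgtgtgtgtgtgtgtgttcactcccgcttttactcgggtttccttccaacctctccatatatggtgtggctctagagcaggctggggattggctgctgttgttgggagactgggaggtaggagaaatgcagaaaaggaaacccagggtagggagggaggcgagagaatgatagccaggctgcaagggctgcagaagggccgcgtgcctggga 
Gm38959: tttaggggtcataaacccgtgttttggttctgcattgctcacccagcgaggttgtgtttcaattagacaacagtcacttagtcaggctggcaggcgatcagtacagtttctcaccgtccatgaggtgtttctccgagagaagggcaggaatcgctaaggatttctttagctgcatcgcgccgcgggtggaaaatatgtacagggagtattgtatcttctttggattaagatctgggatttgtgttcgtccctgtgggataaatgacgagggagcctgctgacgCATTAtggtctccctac 
4833417C18Rik: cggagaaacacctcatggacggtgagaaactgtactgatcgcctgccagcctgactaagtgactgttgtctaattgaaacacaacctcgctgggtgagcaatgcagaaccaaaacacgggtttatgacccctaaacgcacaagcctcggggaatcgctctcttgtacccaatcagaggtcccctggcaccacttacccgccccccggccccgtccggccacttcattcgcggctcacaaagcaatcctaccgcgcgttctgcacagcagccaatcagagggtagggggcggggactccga 
Gm32123: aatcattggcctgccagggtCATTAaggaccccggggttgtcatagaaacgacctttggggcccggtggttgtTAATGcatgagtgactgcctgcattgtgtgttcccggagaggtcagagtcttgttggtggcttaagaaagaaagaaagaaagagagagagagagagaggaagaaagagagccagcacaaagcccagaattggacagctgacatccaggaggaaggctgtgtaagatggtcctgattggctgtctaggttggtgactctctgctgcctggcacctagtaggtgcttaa 
Gm3728: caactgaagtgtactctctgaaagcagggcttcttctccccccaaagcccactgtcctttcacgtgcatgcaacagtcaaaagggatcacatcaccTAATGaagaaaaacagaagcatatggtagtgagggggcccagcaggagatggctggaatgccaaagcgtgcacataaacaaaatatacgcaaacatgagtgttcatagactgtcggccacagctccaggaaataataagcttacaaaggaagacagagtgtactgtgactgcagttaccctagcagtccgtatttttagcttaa
Capitals stand at 1 place each in Gm42190, Gm38959 and Gm3728, at 2 in Gm32123 and at none in Gm9054 and 4833417C18Rik. The mark in Gm42190 lies in the 5′ part that the member did not cover, so it is not in member DNA, and the other marks are. All marks are TAATG or its reverse complement CATTA, the match in Gm3728 being part of the longer CTAATG, which was searched on both strands and contains TAATG. Over all 32851 RefSeq promoters of 300 bases, 26.8% held TAATG, 7.36% CTAATG and 5.29% TAATTA on either strand, so a match in such a window is common, and these matches are a description and not binding sites. The seventh promoter, of Gm5636 on chromosome X, held none of these letters, and its member had maxima of 2 and 3.

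Members were short and their maximum signal ranged from 2 to 99, just under the upper limit of the rule. The median member was 840.5 bp wide (range 64 to 8788), with median interval widths of 574 bp in replicate 1 and 611.5 bp in replicate 2. The maximum signal had a median of 14 in replicate 1 (quartiles 4 and 28, range 2 to 99) and of 13 in replicate 2 (quartiles 4 and 28, range 2 to 99). For description, members were split into tiers. A strong tier of 213 (46.1%, 95% Wilson interval 41.6 to 50.7) had a maximum of 10 or more in both lists, and a weak tier of 106 (22.9%, 19.3 to 27.0) had 5 or less in both. The remaining 143 were higher in 1 list or lay between these lines, and 26 members had a maximum of just 2 in both lists. The maximum was higher in replicate 1 for 209 members, higher in replicate 2 for 210 and equal for 43, and for 96 it differed more than 3-fold between lists.

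**Figure D1:**
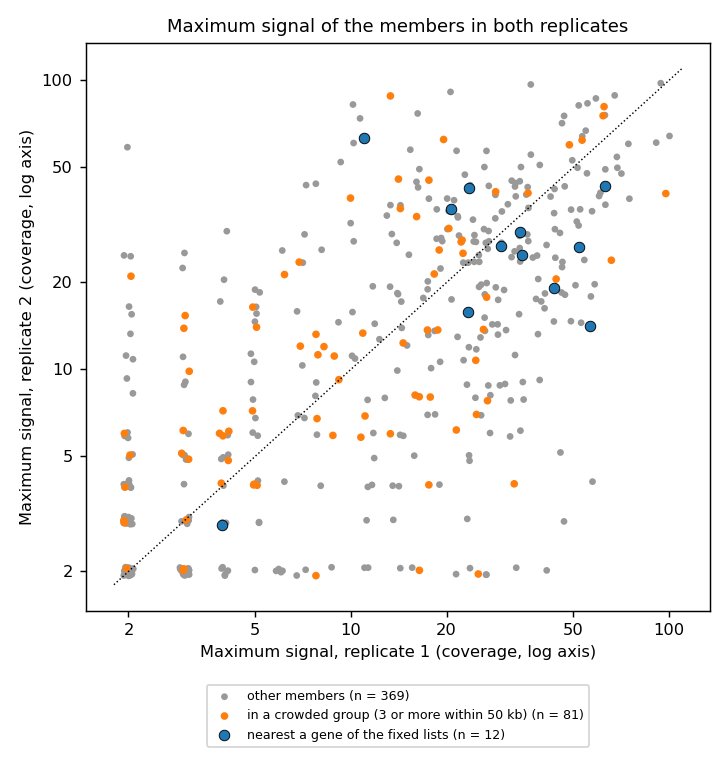
Maximum signal of each of the 462 members in replicate 1 (x axis) and replicate 2 (y axis), in coverage on log axes, with a small random shift so that equal values do not hide each other; the dotted line marks equal values. Members spread from 2 to 99 on both axes, and 11 of the 12 members nearest a gene of the fixed lists have a maximum above 10 in both replicates.

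These signals took part in choosing the members and carry no test. Total signal correlated across members with a Spearman rho of 0.677 (n = 462; 0.437 over the 213 members of the strong tier), a description across sites whose points share the same 2 libraries and, in part, the same neighbourhood. Of all members 30 ranked in the top 1% of both lists by total signal, while 155 lay in the lower 50% of both. Just inside the line, the flattest member intervals reached 0.949 of width times maximum in both replicates, and the nearest intervals left out stood at 0.951 in replicate 1 and 0.95 in replicate 2. Another 42 regions between genes were left out for a maximum over 100, the lowest of these being 101 in replicate 1 and 107 in replicate 2.

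The place of highest coverage was not itself part of the rule. The rule did make the intervals overlap, which limits how far apart the maxima can lie, and no expected distance is given here. The regions of maximum of the 2 replicates lay a median of 159.5 bp apart (quartiles 42.0 and 353), and they overlapped in 202 members (43.7%, 39.3 to 48.3). The median was 163.5 bp in the strong tier and 146 bp in the weak tier. Weak members were also narrower, with a median width of 704.5 bp against 942 bp, so these distances are not like for like. At gene ends the median distance was 178.5 bp and inside gene bodies 147.5 bp, with the maxima overlapping in 35.5% (30.0 to 41.4) and 47.2% (41.6 to 53.0). No test was run between these classes, since regions of the same 2 libraries are not replicates. In 211 members (45.7%) the shorter interval lay wholly inside the longer one, and 10 members had the same ends in both lists.

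**Figure D2:**
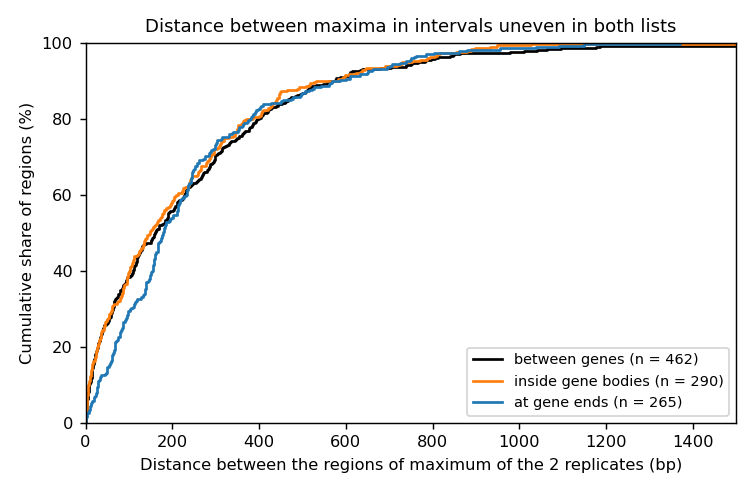
Cumulative share of regions (y axis, %) by the distance in bp between the regions of maximum of the 2 replicates (x axis), for uneven regions between genes (462), inside gene bodies (290) and at gene ends (265); the few regions beyond the right edge are not drawn. The medians are 159.5, 147.5 and 178.5 bp.

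Weak members were more frequent between genes than in the other classes. A maximum of 5 or less in both lists was found for 22.9% of members, for 10.7% (7.63 to 14.8) of regions inside gene bodies and for 0.377% (0.0666 to 2.11) at gene ends. A maximum of 10 or more in both was found for 46.1%, 68.3% (62.7 to 73.4) and 84.2% (79.3 to 88.1). These shares describe the signal that chose the regions and carry no test, and the intervals cover counting error only.

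Distances of members from genes varied widely, and the rule itself left out regions at or inside genes. The median distance from the midpoint of a member to the nearest end of a protein-coding gene was 51662 bp, with quartiles of 15980 and 197726 bp. The 378 members outside the crowded groups described below had a median of 63732 bp, with 179 of them (47.4%) within 50 kb. Of the 462 members, 77 (16.7%) lay within 10 kb of a gene end, 227 (49.1%, 44.6 to 53.7) within 50 kb, and 32 (6.93%) more than 500 kb away. The farthest, 2102467 bp from Pcdh9, a protocadherin gene named after its value was seen, lies in the gap between Pcdh20 and Pcdh9. Uneven intervals between genes without an uneven partner in the other list had median distances of 61890 bp in replicate 1 and 66818 bp in replicate 2. Of these, 46.0% (44.1 to 47.9) of 2695 in replicate 1 and 43.9% (42.4 to 45.4) of 4147 in replicate 2 lay within 50 kb. Where RefSeq gave the strand of the nearest gene, 90 members within 50 kb lay upstream of it and 91 downstream, and for 46 the strand was not used.

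**Figure D3:**
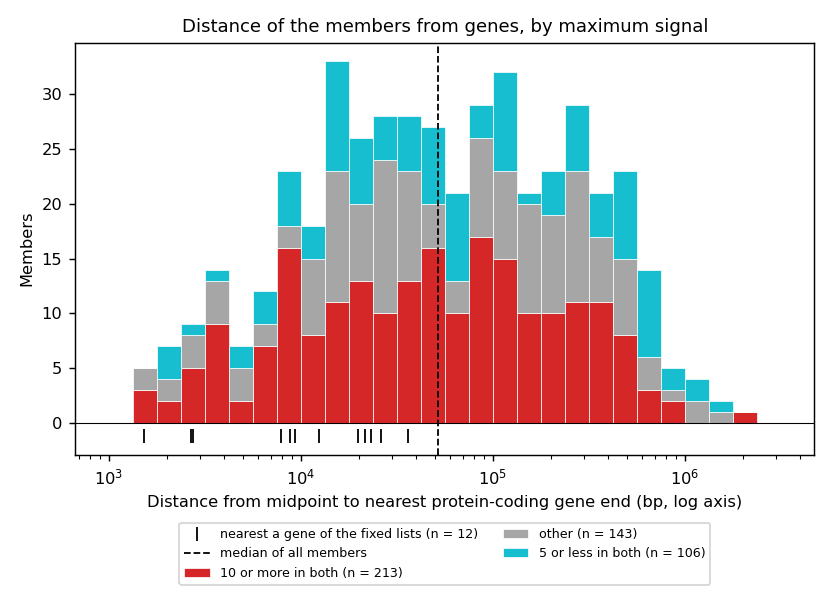
Number of members (y axis) by the distance in bp from midpoint to the nearest protein-coding gene end (x axis, log scale), stacked by maximum signal in the 2 lists; the dashed line is the median of 51662 bp and the black ticks mark the 12 members nearest a gene of the fixed lists. The ticks end at 50 kb because list genes were counted up to that distance, and they run from 1518 to 36394 bp.

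Few genes of the fixed lists had a member as their close neighbour, and those that did were mainly genes of eye development and axon guidance. Most of the lists hold genes of the eye or of axon guidance, so this follows in part from their make-up. The lists were also chosen with earlier results of these data known, so the shares are a description and not independent support. A gene was counted when it was the nearest protein-coding gene of at least 1 member within 50 kb, which held for 181 of 21627 genes (0.837%). Of 226 genes in 11 lists 10 were counted (4.42%). Retinal progenitor genes gave 4 of 28 (Pax6, Six3, Sox2 and Tbx2) and axon guidance genes 3 of 27 (Efna5, Nrp1 and Sema3a). Regulators of ganglion cell fate gave 1 of 30 (Irx5), LIM factors and partners 1 of 16 (Lmo1), and genes dependent on ISL1 in heart and pancreas 1 of 16 (Gata4). The lists of differentiated ganglion cell genes (23), photoreceptor genes (18), amacrine and horizontal cell genes (20), genes of liver, muscle or immune cells (16), housekeeping genes (16) and further cell types in the eye (16) gave 0 each. The sequence between genes had a median of 166 kb on both sides together over all listed genes against 37.0 kb over all protein-coding genes. It was 256 kb for retinal progenitor genes and 821 kb for axon guidance genes, but 25.4 kb for photoreceptor genes, 22.9 kb for housekeeping genes and 29.4 kb for genes of liver, muscle or immune cells, and the part of this length in the counts was not tested.

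Pax6 encodes a paired-box factor without which eyes do not form, and it had a member at chr2:105660096-105661833, 7931 bp upstream of the gene. Its maximum was 61 in replicate 1, where it ranked 103 of 120303 by total signal, and 42 in replicate 2, where it ranked 1551 of 152161. It overlapped the spans of the non-coding genes Paupar and Pax6os1. Its regions of maximum lay 508 bp apart, so both replicates were high but not at the same place.

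Sox2 encodes an HMG-box factor that keeps neural progenitors dividing. It was the only gene of the fixed lists with 3 members, all downstream of it and within 26169 bp. The first, at chr3:34661542-34662151, had maxima of 52 in replicate 1 and 27 in replicate 2. The second, at chr3:34664369-34665551, had 33 and 30 and joined 2 intervals of replicate 1, each with a maximum of 33, to a single interval of replicate 2. The third, at chr3:34678155-34679106, had 44 and 19. All 3 were thus higher in replicate 1, and the first and second lie inside Sox2ot, the long non-coding gene that spans Sox2.

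Six3, a homeodomain factor of the early eye field, had a member at chr17:85628402-85629475, 2747 bp downstream, with maxima of 56 in replicate 1 and 14 in replicate 2. A further member in the same gap, at chr17:85645458-85646448, lay nearer to the neighbouring homeobox gene Six2 (45 and 22). On the other side of Six3 the gap to Camkmt held a member at chr17:85464403-85465305 (47 and 18). The maximum was higher in replicate 1 in all 3. Tbx2, a T-box factor of the dorsal eye, had its member in the narrow gap to Bcas3, at chr11:85829437-85830407, 2693 bp from Tbx2, with 30 and 27, inside the non-coding gene 2610027K06Rik.

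The axon guidance genes each had a single member. That of Nrp1, which encodes a semaphorin co-receptor, lay at chr8:128541585-128542155, 36394 bp downstream, with maxima of 24 in replicate 1 and 44 in replicate 2. That of Sema3a, which encodes a ligand of this receptor, lay at chr5:13623058-13623797, 19942 bp downstream, with 23 and 16. That of Efna5, an ephrin ligand gene of retinal axon mapping, lay at chr17:62882442-62883228, its midpoint 1518 bp upstream of the gene, with 20 and 36. This was the smallest distance of any member, and the order of the replicates differed among the 3 genes.

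The LIM-only gene Lmo1, whose product binds the same cofactor as LIM-homeodomain proteins, had a member at chr7:109196230-109197368, 21592 bp upstream, with maxima of 34 and 25. Irx5, an Iroquois homeobox gene, had one at chr8:92384392-92385096, 23288 bp away, with 11 in replicate 1 and 63 in replicate 2, and a further one stood in the same gap nearer to Irx6 (chr8:92569809-92570370, 32 and 37). The Gata4 member (chr14:63280319-63280749) was the weakest of the 12, with 4 and 3, and placed 397 of 462. The other 11 had a maximum above 10 in both lists. Of the 12, 6 were among the best 100 members when ordered by mean rank.

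**Figure D4:**
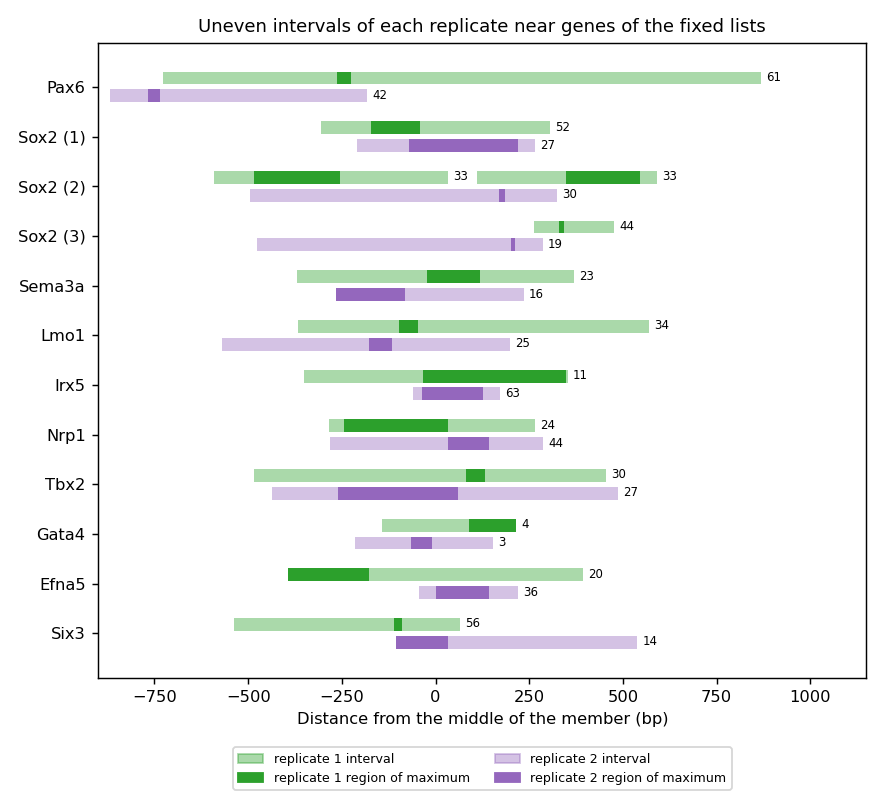
Uneven intervals of replicate 1 (green) and replicate 2 (purple) for the 12 members nearest a gene of the fixed lists, drawn in bp from the middle of each member (x axis); dark stretches are the regions of maximum and the number at the right of a bar is its maximum signal. Six3 reaches 56 in replicate 1 and 14 in replicate 2, Irx5 11 and 63, and the dark stretches of the pair overlap in 3 of the 12 members.

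Counting both genes that border the gap around a member, at any distance, added genes across wide intergenic sequence. By this count 668 of 21627 genes (3.09%) were included, with a median of 365 kb of sequence between genes on their sides, and 29 of the 226 genes of the fixed lists (12.8%). Axon guidance genes gave 8 of 27, retinal progenitor genes 8 of 28 and regulators of ganglion cell fate 7 of 30, where the flanking sequence had medians of 821, 256 and 379 kb. Photoreceptor genes gave 2 of 18, heart and pancreas genes 2 of 16, LIM factors and further eye cell types 1 of 16 each, and the other lists 0.

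Isl1, the gene of the profiled factor, was among them. The gap between Isl1 and Parp8 held 2 members. The nearer, at chr13:116514682-116515251, lay 205278 bp upstream of Isl1 with maxima of 24 in replicate 1 and 28 in replicate 2, and the other, at chr13:116706670-116707030, lay nearer to Parp8 with 19 and 27. Sox11 and Sox4, Sox factors of newborn ganglion cells, were bordered by members at chr12:26533898-26535049 (10 and 16), chr13:28416744-28417677 (30 and 19) and chr13:29070768-29071376 (4 and 5). Barhl2 and Zeb2 were bordered only by members of low rank, with maxima of 7 and 7 and of 2 and 3.

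Other progenitor genes with a member in an adjoining gap included Meis1, a TALE homeobox gene (chr11:18331699-18332283, 40 and 17), and Hes5, a Notch target (chr4:154942257-154942625, 2 and 4). The Meis1 member was higher in replicate 1, and the Hes5 member was near the lowest maximum of any member, which was 2 in both lists. Among guidance genes, Ephb1, a receptor of axons that turn at the midline, bordered a gap with a member at chr9:101472324-101473057 (28 and 40), Efnb2, an ephrin ligand, one at chr8:8361969-8363122 (25 and 32), and Dcc, the netrin receptor, one at chr18:72949343-72950521 (30 and 9). The gap beside Rorb, a nuclear receptor of photoreceptor development, held 2 members, at chr19:20009958-20010645 (45 and 29) and chr19:20122512-20123218 (53 and 64), both nearer to Anxa1. Distances from these members to the nearest protein-coding gene ran from 13821 to 598704 bp. Dcc bordered a further, weaker member (11 and 2), and Epha7, Sema6a and Sall3 were also in this count.

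The 20 best members by mean rank had 17 different nearest genes, of which 0 were on a fixed list. A gene of the fixed lists was nearest within 50 kb for 12 of all 462 members, so 0 of 20 is near that share. Of the 20, 7 began below 4 Mb on their chromosome. The first place was held by chr4:3063607-3068339, 4733 bp wide, with maxima of 61 in replicate 1 and 78 in replicate 2, 106110 bp from the vomeronasal receptor gene Vmn1r2. The second, chr17:3015984-3023202, had 47 and 59 and lay nearest to Scaf8, and the fourth, chr16:3232466-3241253, had 35 and 43 and was the widest of all members, nearest to the olfactory receptor gene Olfr161. These wide members below 4 Mb were high in both replicates.

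Others of the 20 stood alone. One at chr5:32712870-32714220 had maxima of 57 and 84 and lay 22756 bp from Pisd, which encodes phosphatidylserine decarboxylase. One at chr3:105407791-105408923 had 51 and 81 and lay 43533 bp upstream of Kcnd3, a potassium channel gene. One at chr14:61680991-61682175, inside the non-coding gene Dleu2 and nearest to Kcnrg, had 68 and 89. These 3 were higher in replicate 2. Members with 57 and 47, 46 and 43, 61 and 38 and 56 and 67 lay nearest to Foxf1, a forkhead factor, Sec31a, a coat protein of vesicles leaving the endoplasmic reticulum, Olfm1, which encodes the secreted neuronal protein olfactomedin 1, and Elovl5, a fatty acid elongase. Further members of the 20 lay nearest to Gm45988, Mid1, Alkbh8, Disp3, Fam43a and Zfp608.

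Members had a larger share below 4 Mb than uneven intervals without an uneven partner in the other list. Those below 4 Mb numbered 32 (6.93%, 4.95 to 9.61) on 10 chromosomes. The share was 0.965% (0.659 to 1.41) of such intervals between genes in replicate 1 and 1.66% (1.32 to 2.10) in replicate 2. Of the 32, 20 stood in 3 crowded groups described below. The interval around 6.93% counts such neighbours as separate and is therefore too narrow. Outside the crowded groups the share was 12 of 378 members (3.17%, 1.83 to 5.47), an interval that overlaps that of replicate 2. The lowest coordinate in the lists is 3000002. The 32 members below 4 Mb had a median width of 1430.5 bp and medians of the maximum of 21 in replicate 1 and 31.5 in replicate 2. An interval with a maximum over 100 lay within 10 kb in 7 of 32 cases (9 of all 462 members). No test was run on the share below 4 Mb. Of the 42 regions left out for a maximum over 100, 8 also began below 4 Mb.

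Most members stood alone, with 340 of 462 having no other member within 50 kb, but some were gathered in a small number of places. Within 50 kb of another member lay 122 members in 33 groups, 19 of them pairs, and 84 members (18.2%, 14.9 to 22.0) stood in 14 crowded groups of 3 or more. A crowded member had a median of 11 other intervals of replicate 1 and 12 of replicate 2 within 10 kb. The median over all intervals was 1 in both lists and that of the members outside such groups 1 and 2. These counts include other members of the same group, so part of the excess follows from how the groups were formed. Reads from near-identical copies of a sequence cannot be placed with certainty, and how the authors treated such reads is not given in the sources used here. The part of repeated sequence in these groups was not tested.

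The largest group, with 12 members, lay at chr8:123538049-123624115 between Gas8 and Rhou. Of its members 11 overlapped a 5S ribosomal RNA gene each and the twelfth a pseudogene. Their maxima were 2 to 8 in replicate 1 and 2 to 14 in replicate 2. The next, with 11 members at chr6:47740039-47773243 between Gm40363 and Pdia4, had maxima of 4 to 21 in both replicates, and 5 of its members overlapped long non-coding genes.

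A group of 10 at chrX:169993494-170019374 lay beside Mid1, a gene known to reach the boundary of the pseudoautosomal region, and 4 of its members overlapped Erdr1. Its maxima ran from 3 to 99 in replicate 1 and from 6 to 41 in replicate 2. A group of 3 beside Asmt, chrX:170840814-170857297, had maxima of 16 to 25 and 7 to 8. The 3 groups at chromosome starts, nearest to Vmn1r2 (9 members on chromosome 4), Hnf4g (7 on chromosome 3) and Scaf8 (4 on chromosome 17), held 20 of the 32 members below 4 Mb.

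The other groups differed in strength. Beside Gm45988, in the gap to Klf13, 6 members had maxima of 11 to 53 in replicate 1 and 7 to 61 in replicate 2. A group of 3 at chr1:171073341-171082057 beside Fcgr3 overlapped transfer RNA genes in all its members, with 18 to 67 and 4 to 44. Toward Snrpn, 3 members lay in Snhg14, the host gene of small nucleolar RNAs, with 8 to 9 and 7 to 11, and another pair stood farther on in the same gene. Groups beside Gm21119 (6 members), Gm51591 (4) and Zmat1 (3) had median maxima of 2.5, 5.5 and 2 in replicate 1 and of 3, 14 and 6 in replicate 2. Sox2 was the only gene of the fixed lists with a crowded group, and its members had 5 to 7 other intervals of replicate 1 within 10 kb. Without the 14 groups, 378 members remained, 181 of them in the strong tier (47.9%), and 9 genes of the fixed lists were counted in place of 10.

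**Figure D5:**
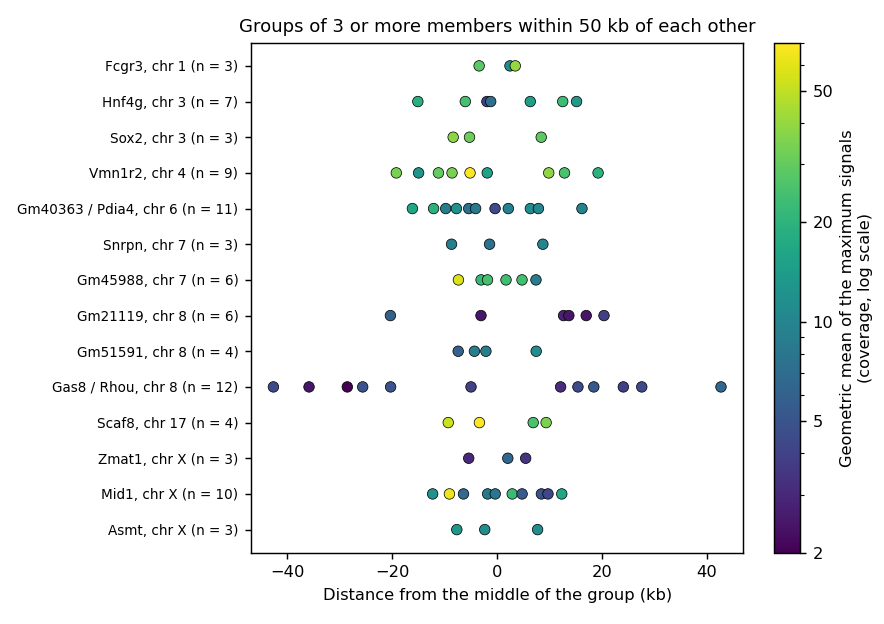
Midpoints of the 84 members of the 14 crowded groups, 1 row per group named by nearest gene, in kb from the middle of the group (x axis), coloured by the geometric mean of the 2 maximum signals on a log scale. The 12 members between Gas8 and Rhou span 86.1 kb and are all dark, while Scaf8, Vmn1r2, Mid1, Gm45988, Fcgr3 and Sox2 hold bright points.

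Zfp608, a zinc finger gene, had 5 members spread over the gaps on both of its sides, toward Csnk1g3 and toward Gramd3. They lay from 59325 to 556753 bp away between chr18:54719281-54721079 (35 and 49) and chr18:55548501-55550187 (33 and 29), and all had a maximum above 10 in both lists, with 14 to 37 in replicate 1 and 13 to 49 in replicate 2. Of the 362 genes that were nearest to any member, 321 had 1 member, 25 had 2 and 16 had 3 or more. These 16 genes accounted for 91 members.

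Genes that do not code for protein could lie under a member, since the rule was applied with protein-coding genes. In all 113 members overlapped at least 1 such gene, and long non-coding genes were overlapped by 79 (17.1%, 13.9 to 20.8). Ribosomal RNA genes were overlapped by 11, all in the group between Gas8 and Rhou. Pseudogenes were overlapped by 10, transcribed pseudogenes by 5, transfer RNA genes by 4 and small nuclear RNA genes by 3. A share over other intervals was not computed for the 113 or for these further kinds. Uneven intervals between genes without an uneven partner in the other list also overlapped long non-coding genes. Their share was 14.2% (13.0 to 15.6) in replicate 1 and 12.1% (11.1 to 13.1) in replicate 2. These intervals had median widths of 532 and 551 bp, against 840.5 bp for members. A wider region can overlap more genes, so the shares are not like for like. Among the strong members the share was 20.7% (15.8 to 26.6) and among the weak ones 5.66% (2.62 to 11.8). Among the 143 members of neither tier it was 20.3% (14.5 to 27.6). Whether a span without strand or exons is transcribed in these cells was not measured.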

How the data were processed

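CUT&Tag of ISL1 was measured in 2 samples of wild-type E13.5 retina, which form 1 group. For each sample the authors deposited a list of intervals with the total and the maximum coverage signal of each. Per the submitters' processing notes, mm10, Bowtie2, SEACR, MACS2 and FastQC were used; neither versions nor roles are stated. The caller, threshold, control track, treatment of duplicates and of reads with several matches, and depth are unknown here. Where duplicates are kept, amplification of a fragment raises the signal.

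Intervals on chromosomes 1 to 19 and X were joined to 21627 protein-coding RefSeq gene symbols (GRCm38.p6) with Python 3.11.15, pandas 2.3.3 and SciPy 1.17.1. All 226 list genes matched. The joins were tested on simulated data, where 50 of 50 planted regions between genes were found. No test between groups was possible, and shares carry 95% Wilson intervals, which cover counting error only. Named genes are the nearest genes of the 20 best members by mean rank of total signal, list genes nearest to a member within 50 kb, genes nearest to 3 or more members, and genes bordering a described gap; others are marked, and some items are not reported here. Members and lists were chosen with earlier results of these data known. Alternatives varied the evenness line, overlap, maximum, window, gene set, identical pairs and replicates; leaving out crowded groups was chosen after seeing the data.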

Additional observations from a re-analysis of the deposited data

Results flagged for a closer look

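Uneven intervals shared by both lists also occurred outside the chromosomes used. On chromosome Y, 18 uneven intervals of replicate 1 overlapped an uneven interval of replicate 2, and on sequences not placed on a chromosome 107 did. The lists held 115 and 321 uneven intervals on Y and 151 and 212 on the other sequences, and no expected overlap was computed. They were listed because they lie in data that the comparisons above do not use.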

How the results depend on the processing

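No paired analysis was possible because there was 1 group. The count of 462 members fell to 260 with a reciprocal overlap of at least 50% and to 288 with a maximum of at least 5 in both lists. The other alternatives that used both lists gave 333 to 499. A single list gave 3211 to 4654 uneven intervals between genes. The median distance to a gene end, 51662 bp, became 47373 bp with reciprocal overlap, 56558 bp with maxima of 50 or less, 46711 bp (46710.5) with maxima of at least 5, 68224 bp with a 5 kb window, 68610 bp between genes of all annotated kinds, 63732 bp without crowded groups, and 60831 to 65732 bp in single lists. The distance between maxima became 109 bp with reciprocal overlap and stayed within 151 to 170 bp otherwise. Members within 50 kb of another numbered 53 with reciprocal overlap, 70 between genes of all kinds, 38 without crowded groups and 982 to 1533 in single lists. The 10 list genes became 6 with reciprocal overlap and 9 with maxima of at least 5. They became 7 with maxima of 50 or less, with a 5 kb window, and between genes of all annotated kinds. Counting both bordering genes gave 29, and single lists gave 33 to 45. The single lists held 3211 to 4654 intervals in place of 462 members, and the share over all protein-coding genes is not given for them. Depth is unknown, so weak members cannot be given a counting error.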
